A study of Homo sapiens with 12 samples.

Results

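The genes described here are the relatives, regulators and transcriptional targets of p53, the stress-activated transcription factor that restrains growth of damaged cells. They are the 31 genes of a fixed list matched by symbol to the 26485 genes of the count table, and all 31 were in it. RNA sequencing covered 12 libraries of COV362 and PEO1, established human cell lines of high-grade serous ovarian carcinoma, labelled as parental. Each line received either DMSO, the vehicle, or prexasertib at 20 nM, which blocks CHK1 and CHK2, the kinases that hold damaged cells out of division. The 4 groups (COV362 DMSO, COV362 prexasertib, PEO1 DMSO, PEO1 prexasertib) had 3 libraries apiece with the letters A, B and C, all grown in the same medium with serum and insulin. How long the cells were treated is not stated in the labels. Nor do they say that replicates came from separate cultures. The p-values therefore reflect only the variation among these libraries, which may be technical.

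When p53 is active it switches on genes that stop the cell cycle, repair DNA, adjust metabolism and start cell death. It also switches on MDM2 and PPM1D, which turn it off again. The relatives p63 and p73 bind much the same DNA element and share part of its targets. In this tumour type the p53 gene is usually mutated, and the question put to these data was which of its targets still moved when the checkpoint kinases were inhibited.

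Values are given as CPM, each gene's count as a share of its library, scaled by library size and composition, with the standard deviation (SD) over 3 libraries. Log2 fold changes carry a standard error (SE) and an adjusted p from edgeR's quasi-likelihood test with Benjamini-Hochberg correction over all 14498 tested genes, and a gene was called at an adjusted p under 0.05. Library totals ran from 9390790 to 18262805 counts, and log2 CPM correlated at 0.959 to 0.989 within groups. Of 9 markers of epithelial ovarian carcinoma, 8 had a mean over 1 CPM in both COV362 groups and 9 in both PEO1 groups. Summed over that list, PEO1 held 4485 to 5208 CPM under DMSO and 2483 to 2822 under prexasertib, and COV362 held 1667 to 1951 and 1631 to 2317. The 6 fibroblast markers summed to 3.93 to 9.58 CPM over all libraries, with LUM listed at 0 in every group. The 5 immune markers summed to 0.261 to 0.737 CPM in COV362, 3.92 to 5.16 in PEO1 DMSO and 0.824 to 2.11 in PEO1 prexasertib, and no group had counts for all 5. The 3 endothelial markers, of which CDH5 made up most, summed to 73.8 to 88.2 CPM in COV362 DMSO, 46.5 to 51.0 in COV362 prexasertib, 6.43 to 7.38 in PEO1 DMSO and 1.32 to 3.62 in PEO1 prexasertib. The endothelial sums in both lines and the epithelial and immune sums in PEO1 were lower under the drug without overlap. Their part in the results was not tested.

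Prexasertib moved part of the p53 network in PEO1, where 9 of 28 tested members rose and 2 fell (14.7% and 14.6% of all tested genes did so). The risers were the p53 inhibitors MDM4 and PPM1D, the growth-arrest genes BTG2 and CCNG2, the metabolic regulator SESN2, and ZMAT3, TP53INP1, AEN and RPS27L from the cell death and survival group. The 2 that fell were STEAP3 and PLK2. MDM2, DDB2, XPC, POLH, CCNG1, SESN1 and FDXR, also p53 targets, were among the 17 tested members not called in PEO1. No member passed the test in COV362, where only 0.828% of all tested genes did. SESN2 and AEN came closest there on the higher side, and PLK2 and BTG2 on the lower.

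Of the 31 members, 28 had enough counts to be tested. Those left out were TP73, SPATA18 and EDA2R. TP73, which encodes the relative p73, had 16 counts over the COV362 DMSO libraries, 26 over COV362 prexasertib, 2 over PEO1 DMSO and 12 over PEO1 prexasertib. The ratio of pooled TP73 levels in COV362, prexasertib to DMSO, was 1.50 with a 95% counting interval of 0.774 to 2.99. In PEO1 it was 6.01 with an interval of 1.34 to 55.3, and 9 of the 12 prexasertib counts came from library A. TP73 shares 218 exon bases with the antisense gene TP73-AS1, and the library kit does not keep the strand. SPATA18, a factor of mitochondrial quality control, had 1 count in all, in PEO1 prexasertib C. EDA2R, the receptor of ectodysplasin A2, had 6 counts in COV362 prexasertib B and 1 in PEO1 DMSO C. For both genes a group with 0 counts allows a level of up to 0.0578 to 0.0717 CPM (3 counts over the group), a limit that covers counting error only.

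Levels between genes were compared per length of exon, as RPKM, the CPM divided by exon length in kilobases. In PEO1 DMSO the order was led by EI24, an endoplasmic reticulum protein, at 149 ± 16.1 RPKM (SD, n = 3), followed by the kinase PLK2 at 108 ± 10.1 and by RPS27L, a ribosomal protein variant, at 59.1 ± 10.4. CCNG1 (27.2 ± 1.52), TRIAP1 (25.4 ± 3.91), TP53I3 (21.5 ± 2.79) and DDB2 (21.2 ± 0.529) came next, and neighbours among these did not differ beyond their spread. In COV362 DMSO the order was led by PLK2 at 186 ± 10.4 RPKM. RPS27L (63.1 ± 14.2), CCNG1 (61.2 ± 8.91) and EI24 (55.6 ± 7.56) followed without separating from one another. At the low end of the tested members in PEO1 DMSO were TP63 at 0.838 RPKM, TP53INP1 at 0.369 and GDF15 at 0.212.

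**Figure D1:**
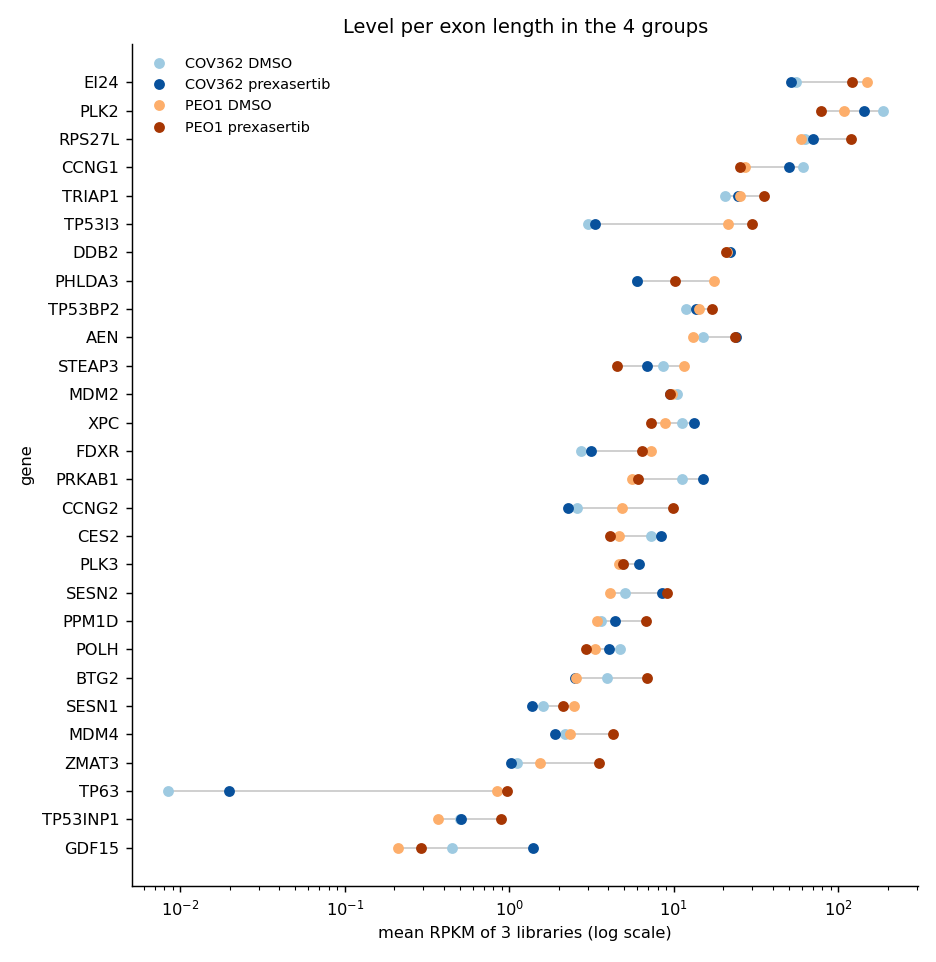
Mean RPKM of 3 libraries on a log axis for the 28 tested members (rows), with 1 point per group joined by a grey line. TP63 and TP53I3 are higher in both PEO1 groups than in both COV362 groups, while DDB2 and MDM2 sit at nearly the same level in all 4 groups.

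Promoter windows were searched for the p53 response element because the members are grouped by that factor. The windows are RefSeq's, on GRCh38.p14, from 250 bases before to 50 bases after each annotated start. Of the 31 members, 29 had at least 1 window, and PHLDA3 and TP53INP1 did not match. The element is built from copies of a decamer, the p53 half-site, which reads as its own reverse complement and was searched by its consensus on both strands. It was found in 7 of 29 members (24.1%), against 8.14% of the 16199 genes of the count table with a window and 6.63% of all 35116 windows. The 7 follow, in windows of up to 30 bases, 5′ to 3′ on the gene's strand, and the capitals mark the decamers.
PLK2, chr5:58460199-58460228, minus strand: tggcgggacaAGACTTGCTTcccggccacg
AEN, chr15:88621296-88621325, plus strand: agtcggagccGGGCTTGCCCgggcatgtgg
RPS27L, chr15:63157517-63157546, minus strand: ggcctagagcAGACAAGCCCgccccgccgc
DDB2, chr11:47214975-47215003, plus strand: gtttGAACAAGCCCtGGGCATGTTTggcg
SESN1, chr6:109009018-109009047, minus strand: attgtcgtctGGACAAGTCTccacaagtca
FDXR, chr17:74872986-74873015, minus strand: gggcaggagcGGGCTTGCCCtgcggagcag
EI24, chr11:125569457-125569486, plus strand: cgtgcggcccGGGCATGCCCagtgcgggcg

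DDB2 was the 1 member with a full element, meaning a pair of decamers with at most 13 bases between them, which 10 of all windows held. AEN, RPS27L and PLK2 were called in PEO1 (below), while DDB2, SESN1, FDXR and EI24 were not called there. The other 8 called members either held no match in this window (MDM4, PPM1D, BTG2, CCNG2, SESN2, STEAP3 and ZMAT3) or had no window (TP53INP1). The AP-1 site TGACTCA was found in MDM2 and EDA2R (6.90% of members, 5.54% of genes). The cAMP response element core TGACGT was found in TP63, PPM1D, PLK2 and XPC (13.8% of members, 11.5% of genes). A match is a description of the letters only, and a window without one says nothing about binding elsewhere.

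In PEO1, 11 of the 28 tested members were called (39.3%), against 29.3% of all tested genes. By direction, 9 members rose beside 14.7% of all genes, and 2 fell beside 14.6%. The median log2 change over the 28 members was 0.16, and 0.01 over all tested genes. Every prexasertib library lay above every DMSO library for 10 members and below it for 5, and the groups overlapped for 13. Over all tested genes the groups were apart for 50.1% (25.0% higher and 25.0% lower). In bulk libraries such as these, a smaller share of cells expressing a gene and less RNA per cell cannot be told apart.

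The negative regulators split. MDM2 encodes the ubiquitin ligase that marks p53 for destruction and is the best known p53 target. It measured 70.1, 72.8 and 77.6 CPM in PEO1 DMSO A, B and C and 73.0, 76.7 and 66.7 in PEO1 prexasertib. These ranges overlapped, and the log2 change was -0.03 ± 0.13 (adjusted p 0.898). COV362 gave 70.8, 86.4 and 78.5 CPM under DMSO and 63, 76.1 and 75.4 under prexasertib, a log2 change of -0.14 ± 0.13 (adjusted p 0.736). MDM2 was thus at 71.5 to 78.6 CPM on average in all 4 groups.

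MDM4, the MDM2 relative that masks the activation domain of p53 (chromosome 1, 204516379 to 204558120, plus strand), rose in PEO1. Its level was 23.7, 23.2 and 23.4 CPM under DMSO and 37.9, 47.3 and 44.4 under prexasertib. The groups were far apart, with a 1.84-fold rise and a log2 change of 0.88 ± 0.15 (adjusted p 8.95e-04). In COV362 MDM4 read 21.8, 19.9 and 24.2 CPM under DMSO and 15.9, 20.9 and 20.8 under prexasertib, with overlapping groups and a log2 change of -0.19 ± 0.15 (adjusted p 0.689). PPM1D, also called WIP1, is the phosphatase that resets p53 and the damage kinases (chromosome 17, 60600183 to 60666279, plus strand). It measured 16.7, 16.4 and 15.9 CPM in PEO1 DMSO and 29.7, 33.2 and 34.8 in PEO1 prexasertib. No library overlapped, and PPM1D rose 1.99-fold, by 0.99 ± 0.17 on the log2 scale (adjusted p 7.29e-04). COV362 gave 13.8, 19.0 and 18.6 CPM against 17.9, 24.4 and 21.0, which overlapped.

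Of the 5 genes of growth arrest and kinases, BTG2 and CCNG2 rose in PEO1, PLK2 fell, and CCNG1 and PLK3 were not called. BTG2, an antiproliferative partner of the mRNA deadenylase complex (chromosome 1, 203305536 to 203309601, plus strand), gave the largest PEO1 rise among the members. It read 7.57, 7.71 and 5.28 CPM in PEO1 DMSO and 17.9, 18.6 and 19.1 in PEO1 prexasertib. The treated libraries stood well clear of the controls at 2.70-fold, a log2 change of 1.43 ± 0.21 (adjusted p 3.01e-04). CCNG2, an atypical cyclin tied to cell cycle exit (chromosome 4, 77157204 to 77170060, plus strand), read 20.0, 28.4 and 30.8 CPM under DMSO and 56.6, 50.8 and 53.8 under prexasertib. It rose 2.03-fold with no overlap, by 1.02 ± 0.22 (adjusted p 0.00341).

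PLK2, a polo-like kinase of the stress response (chromosome 5, 58453983 to 58460139, minus strand), was among the most abundant members and moved the other way. It measured 272, 323 and 321 CPM in PEO1 DMSO and 214, 222 and 234 in PEO1 prexasertib. Each treated library was below each control, and PLK2 fell 1.37-fold, a log2 change of -0.45 ± 0.12 (adjusted p 0.0120). The related kinase PLK3 had overlapping groups in PEO1, at 10.7 to 11.2 CPM under DMSO and 8.85 to 14.2 under prexasertib. CCNG1, the sister cyclin of CCNG2, read 63.4 to 71.0 CPM under DMSO and 61.9 to 63 under prexasertib, apart by little, with a log2 change of -0.11 ± 0.16 (adjusted p 0.651).

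The 3 genes of DNA repair and bypass were not called in either line. DDB2, a sensor of ultraviolet damage and the holder of the full p53 element above, was nearly level, with group means of 38.3 to 40.5 CPM. Its log2 change was -0.03 ± 0.13 in PEO1 (adjusted p 0.896) and -0.00 ± 0.14 in COV362 (adjusted p 1). XPC, which finds distorted DNA for nucleotide excision repair, read 27.5 to 35.9 CPM in PEO1 DMSO and 24.3 to 29.0 in PEO1 prexasertib (log2 change -0.29 ± 0.15, adjusted p 0.166). POLH, the bypass polymerase eta, read 26.6 to 29.4 and 18.4 to 29.2 CPM (log2 change -0.19 ± 0.18, adjusted p 0.460).

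Among the 7 genes of stress metabolism and redox balance, SESN2 rose and STEAP3 fell in PEO1. SESN2, a sestrin that restrains the growth kinase complex mTORC1 (chromosome 1, 28259452 to 28282491, plus strand), read 14.8, 13.9 and 14.8 CPM in PEO1 DMSO and 36.9, 28.1 and 31.2 in PEO1 prexasertib. The groups were clearly apart, at 2.21-fold and a log2 change of 1.14 ± 0.17 (adjusted p 3.01e-04). Its relative SESN1 did not follow, at 7.27 to 10.7 CPM against 7.22 to 8.33 (log2 change -0.23 ± 0.22, adjusted p 0.456). STEAP3, an endosomal reductase of iron (chromosome 2, 119223808 to 119265651, plus strand), had the largest fall among the members. It measured 49.7, 51.3 and 49.5 CPM in PEO1 DMSO and 20.7, 17.0 and 21.4 in PEO1 prexasertib. The fall was 2.55-fold, a log2 change of -1.35 ± 0.15 (adjusted p 4.05e-05), with every treated library far below the controls. STEAP3 shares 500 of its exon bases with the antisense gene STEAP3-AS1, which held 24 counts over all 12 libraries.

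The remaining genes of that role were not called in PEO1. TP53I3, a quinone oxidoreductase also known as PIG3, was among the 3 uncalled members with the lowest adjusted p. It read 50.2, 40.3 and 40.4 CPM under DMSO and 65.7, 53.9 and 63 under prexasertib, which did not overlap, with a log2 change of 0.48 ± 0.20 (adjusted p 0.0803). Its call appeared without COV362 prexasertib A (adjusted p 0.0462) or B (0.0266), libraries that entered only through the shared spread. TP53I3 was also called by limma-voom (0.0286), without the A libraries (0.0462) and from the 6 PEO1 libraries alone (0.0148). PRKAB1, a subunit of the energy sensor AMPK, FDXR, a mitochondrial ferredoxin reductase, and CES2, a carboxylesterase, had log2 changes of 0.11, -0.18 and -0.18 in PEO1.

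Of the 7 tested genes of cell death and survival, 4 rose in PEO1 and none of the others was called. ZMAT3, a zinc finger protein that binds RNA (chromosome 3, 179017225 to 179071868, minus strand), read 10.3, 16.9 and 14.6 CPM in PEO1 DMSO and 28.5, 32.1 and 34.9 in PEO1 prexasertib. It rose 2.28-fold without overlap, by 1.19 ± 0.22 on the log2 scale (adjusted p 0.00154). TP53INP1, a stress protein linked to autophagy and cell death, was low. It measured 1.50, 2.17 and 2.58 CPM under DMSO and 4.46, 4.78 and 5.92 under prexasertib. The groups were apart, at 2.41-fold and a log2 change of 1.27 ± 0.37 (adjusted p 0.0197). This was the 1 PEO1 call that rested on single libraries: it was lost without PEO1 DMSO A (adjusted p 0.0932), DMSO B (0.0625), prexasertib B (0.0522) or prexasertib C (0.0819).

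AEN, an exonuclease that promotes apoptosis (chromosome 15, 88621296 to 88632281, plus strand), read 42.6, 42.0 and 37.6 CPM in PEO1 DMSO and 88.8, 66.3 and 65.6 in PEO1 prexasertib. Library A was the highest of the treated group, and all 3 lay above the controls, at 1.81-fold and a log2 change of 0.85 ± 0.16 (adjusted p 0.00154). RPS27L, the ribosomal protein S27-like gene (chromosome 15, 63153340 to 63157542, minus strand), read 73.4, 67.2 and 51.6 CPM under DMSO and 152, 115 and 123 under prexasertib. It rose 2.03-fold without overlap, by 1.02 ± 0.19 (adjusted p 0.00162). RPS27L has the close relative RPS27, and how reads with several matches were handled is not given in the sources used here. Both AEN and RPS27L carry the decamer in the windows shown above.

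PHLDA3, which blocks the survival kinase AKT, and TRIAP1, a small mitochondrial inhibitor of apoptosis, were the other uncalled members with the lowest adjusted p in PEO1. PHLDA3 read 58.4, 44.8 and 45.3 CPM under DMSO and 34.5, 20.1 and 31.7 under prexasertib. Every treated library was lower, with a log2 change of -0.78 ± 0.30 (adjusted p 0.0612). It was called without COV362 DMSO A (adjusted p 0.0423), COV362 prexasertib A (0.0272) or COV362 prexasertib B (0.0229). PHLDA3 was also called by DESeq2 (0.0321), by limma-voom (0.0298), without a filter on low counts (0.0167), without the A libraries (0.0224) and from the 6 PEO1 libraries alone (0.00659). TRIAP1 read 35.0, 25.9 and 29.0 CPM against 51.2, 34.1 and 39.4, which overlapped (log2 change 0.47 ± 0.19, adjusted p 0.0705). From the 6 PEO1 libraries alone TRIAP1 was called (0.0469). EI24 read 324 to 403 CPM under DMSO and 280 to 319 under prexasertib, apart but not called (log2 change -0.30 ± 0.14, adjusted p 0.112). TP53BP2, or ASPP2, which steers p53 toward death genes, and the cytokine GDF15 had overlapping groups in PEO1.

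**Figure D2:**
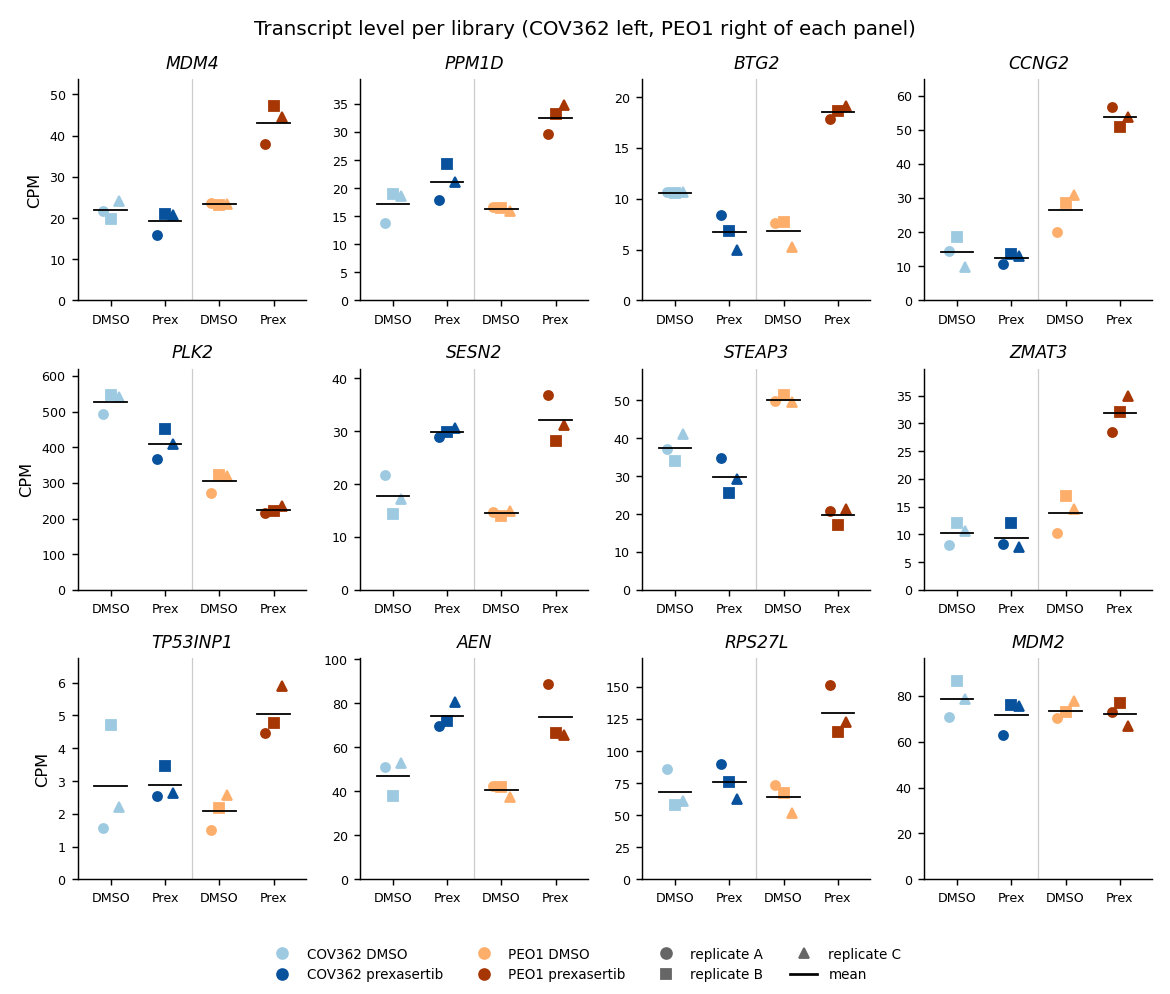
CPM in each of the 12 libraries (points, shaped by replicate letter) with the group mean (line) for the 11 members called in PEO1 and for MDM2. In PEO1 the treated and control points of the 11 do not overlap, whereas MDM2 stays at 71.5 to 78.6 CPM on average in all groups.

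The libraries lettered A leaned furthest toward short genes in every group. Across tested genes, the deviation of an A library from its group mean correlated with exon length at a Spearman rho of -0.413 to -0.348, so that short genes read higher there. Some B libraries leaned about as far the other way (0.439 in COV362 DMSO, 0.367 in COV362 prexasertib and 0.411 in PEO1 prexasertib). Deviations from a group mean balance out, so they do not mark A as the odd library. These correlations are a description over genes, which are not replicates. AEN, SESN2 and RPS27L were highest in PEO1 prexasertib A. Without the A libraries of all groups, all 11 members called in PEO1 were still called, and the number called there was 13.

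In COV362 no member was called, against 0.828% of all tested genes (0.607% higher and 0.221% lower). Without adjustment, 7 members had a p under 0.05, of which 4 were higher and 3 lower (25.0% of the 28, against 12.6% of all tested genes). DESeq2 called 3 members (SESN2, AEN and PLK2) and limma-voom 1 (SESN2). The median log2 change over the 28 members was 0.07, with 15 above and 13 below 0. Treated libraries lay above all controls for SESN2, AEN and GDF15 and below for PLK2 and BTG2, while 23 members overlapped. Over all tested genes 14.5% were apart (6.82% higher and 7.63% lower).

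SESN2 read 21.7, 14.3 and 17.1 CPM in COV362 DMSO and 28.8, 29.9 and 30.6 in COV362 prexasertib, so the groups were apart in this line too. The log2 change was 0.76 ± 0.17 (adjusted p 0.0568). It passed without COV362 DMSO A (log2 change 0.92, adjusted p 0.0217), the highest control. AEN read 50.9, 37.7 and 52.7 CPM against 69.6, 72.1 and 80.3, again without overlap, for a log2 change of 0.65 ± 0.16 (adjusted p 0.0780). PLK2 read 494, 547 and 542 CPM against 366, 450 and 410, all lower under the drug (log2 change -0.37 ± 0.12, adjusted p 0.192). These were the 3 lowest adjusted p among the members in COV362.

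BTG2 went the other way from PEO1. It read 10.6, 10.5 and 10.6 CPM in COV362 DMSO and 8.44, 6.85 and 5.0 in COV362 prexasertib, with each treated library below the controls and a log2 change of -0.65 ± 0.22 (adjusted p 0.204). GDF15, a secreted stress cytokine of the TGF-beta family, was near the limit of detection, with 3, 6 and 14 counts in COV362 DMSO and 13, 27 and 39 in COV362 prexasertib. Its CPM values were 0.363, 0.329 and 0.912 against 1.06, 1.67 and 2.30, apart but low. The ratio of pooled levels was 3.17 with a 95% counting interval of 1.97 to 5.28, while the test over replicates gave 1.62 ± 0.61 (adjusted p 0.276).

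In COV362 every same-lettered pair of libraries correlated at over 0.1 in its deviations from the group means, the rule for pairing used here. A fit that blocks on the letter called more. It used the libraries of both lines and took the letter effect to be the same in both. With that replicate block 9.65% of all tested genes were called in COV362 (4.20% higher and 5.45% lower), and 4 of 28 members: SESN2 (log2 change 0.78, adjusted p 9.81e-04) and AEN (0.67, adjusted p 0.00148) rose, and PLK2 (-0.37, adjusted p 0.00446) and BTG2 (-0.68, adjusted p 0.0313) fell. SESN2, AEN and PLK2 carried the same sign in PEO1, where they were called without the block, and BTG2 carried the opposite sign.

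**Figure D3:**
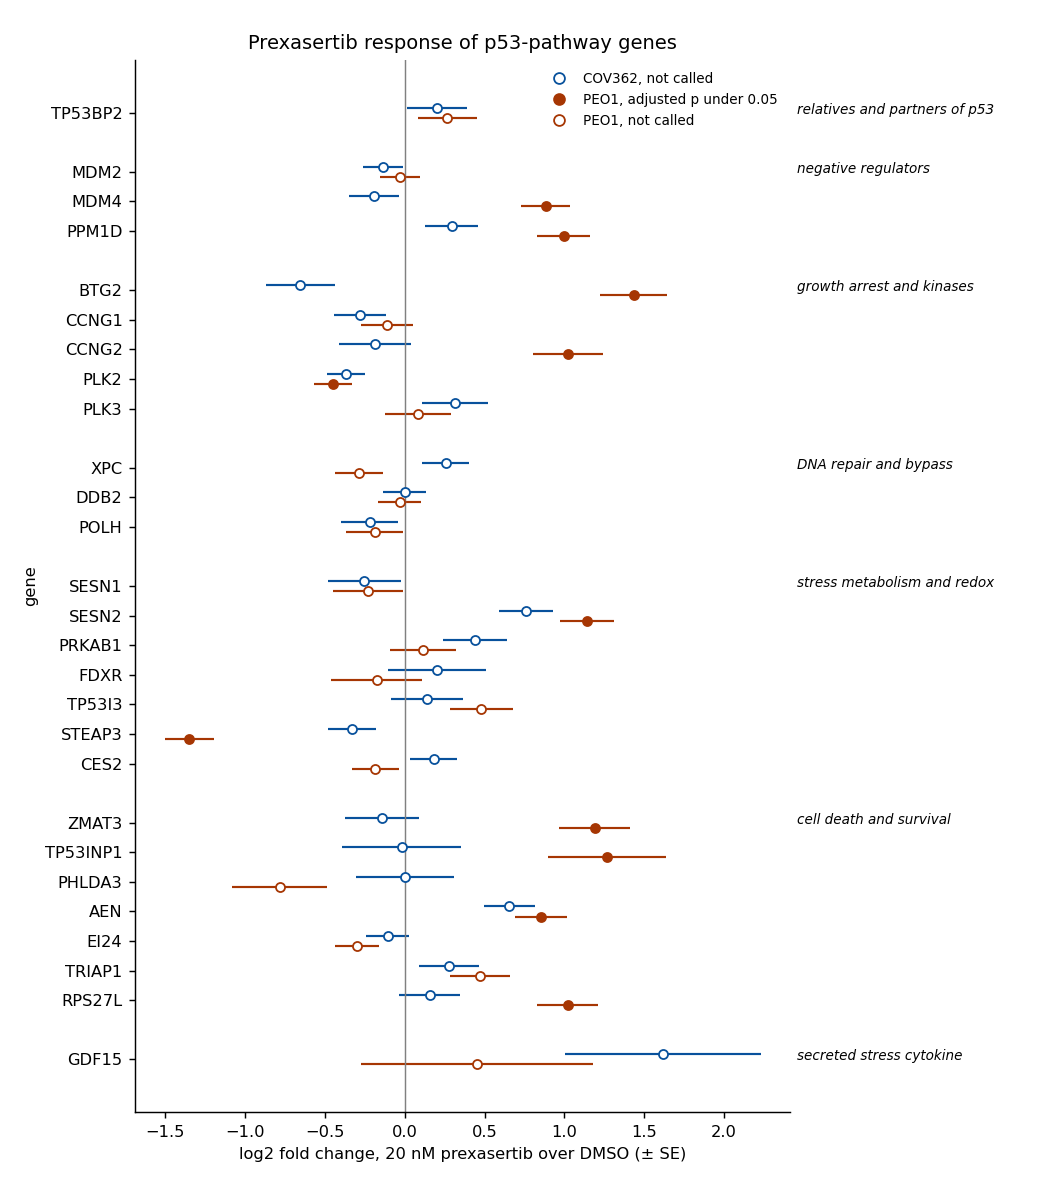
Log2 fold change of prexasertib over DMSO with its SE for 27 tested members, by role (TP63 is left out because its SE in COV362 is 1.18). Filled points passed an adjusted p under 0.05, and all of them belong to PEO1. Several members sit on opposite sides of 0 in the lines, and of these BTG2 alone had groups apart in both lines. The COV362 changes of MDM4 (-0.19 ± 0.15), CCNG2 (-0.18 ± 0.23) and ZMAT3 (-0.15 ± 0.23) came from overlapping groups.

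Whether the lines responded differently was tested as the PEO1 change minus the COV362 change. Of 28 members 5 were called, 4 higher and 1 lower, against 6.10% of all tested genes (3.14% higher and 2.97% lower). All 5 were among the 11 called in PEO1. BTG2 differed most, by 2.09 ± 0.30 on the log2 scale (adjusted p 0.00301), since it rose in PEO1 and read lower in each treated COV362 library. ZMAT3 differed by 1.33 ± 0.32 (adjusted p 0.0296). In COV362 ZMAT3 read 8.11, 12 and 10.6 CPM under DMSO and 8.19, 12 and 7.77 under prexasertib, an overlap with a log2 change of -0.15.

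CCNG2 differed by 1.21 ± 0.31 (adjusted p 0.0392), with 14.4, 18.5 and 9.65 CPM in COV362 DMSO and 10.7, 13.6 and 13.1 in COV362 prexasertib, which overlapped. MDM4 differed by 1.07 ± 0.22 (adjusted p 0.0149). STEAP3 differed by -1.02 ± 0.21 (adjusted p 0.0168), with 37.3, 34.0 and 41.0 CPM in COV362 DMSO and 34.7, 25.4 and 29.3 in COV362 prexasertib. Its COV362 groups overlapped, at a log2 change of -0.33 ± 0.15.

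BTG2 and STEAP3 were called in this contrast whichever library was left out. The MDM4 call was lost without PEO1 DMSO A, B or C or PEO1 prexasertib B (adjusted p 0.0520, 0.0521, 0.0531 and 0.0625). ZMAT3 was called without COV362 DMSO A, COV362 prexasertib B or PEO1 DMSO B, and lost without each of the other 9 libraries (adjusted p 0.0535 to 0.0839). CCNG2 was called without COV362 DMSO A, COV362 DMSO C or COV362 prexasertib B, and lost without each of the other 9 (0.0648 to 0.106) and without all A libraries (0.0969). The count of 5 became 2 without PEO1 DMSO A, PEO1 DMSO C or PEO1 prexasertib B. It became 3 without COV362 DMSO B, COV362 prexasertib A, COV362 prexasertib C, PEO1 DMSO B, PEO1 prexasertib A or PEO1 prexasertib C.

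The other 6 members called in PEO1 had no call for a difference between the lines. For SESN2 the difference was 0.38 ± 0.24 (adjusted p 0.332), for AEN 0.20 ± 0.23 (0.618) and for PLK2 -0.08 ± 0.17 (0.808). PPM1D (0.70 ± 0.24, adjusted p 0.0898), RPS27L (0.86 ± 0.27, 0.0739) and TP53INP1 (1.29 ± 0.53, 0.147) had larger differences that missed the threshold. PPM1D passed without COV362 DMSO A (adjusted p 0.0401) or COV362 prexasertib B (0.0431).

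The untreated lines differed in 14 of 28 members, 8 higher and 6 lower in PEO1, against 57.7% of all tested genes (29.1% higher and 28.6% lower). The untreated libraries of the lines met the same-letter rule as well, though COV362 DMSO B correlated best with PEO1 DMSO C. With the replicate block 18 members were called, 11 higher and 7 lower, against 68.4% of all tested genes (34.3% higher and 34.0% lower). The block added TP53BP2, TRIAP1, ZMAT3 and XPC. TP63, which encodes the relative p63, a master factor of stratified epithelium, had 83, 95 and 106 counts in PEO1 DMSO A, B and C and 0, 3 and 0 in COV362 DMSO. The pooled PEO1 level was 76.3 times the COV362 level, with a 95% counting interval of 25.9 to 372 (edgeR adjusted p 5.48e-06). TP63 was not called with the drug in either line, at 5.47 ± 0.339 CPM (SD, n = 3) in PEO1 DMSO and 6.32 ± 1.77 in PEO1 prexasertib. Over its gene counts the isoforms of p63 cannot be told apart.

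TP53I3 was at 6.08 ± 0.691 CPM in COV362 DMSO and 43.6 ± 5.68 in PEO1 DMSO (SD, n = 3 each), 7.19-fold higher in PEO1 (log2 difference 2.85 ± 0.22, adjusted p 1.14e-07). PHLDA3 was 2.97-fold higher in PEO1 (49.5 ± 7.71 against 16.8 ± 4.76 CPM, adjusted p 5.83e-04). FDXR was 2.68-fold higher (17.8 ± 3.28 against 6.66 ± 0.224 CPM, adjusted p 0.00110), and so was EI24 (365 ± 39.5 against 137 ± 18.6 CPM, adjusted p 1.08e-06). None of these 5 genes was called with the drug in either line by edgeR on all 12 libraries without the block. TP53I3 and PHLDA3 were called in PEO1 under several alternatives, as given above.

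The members on the lower side in PEO1 were CCNG1, PRKAB1, PLK2, CES2, BTG2 and POLH. CCNG1 led them at 2.25-fold, with 67.2 ± 3.76 CPM in PEO1 DMSO and 151 ± 22.0 in COV362 DMSO (adjusted p 3.48e-05). The calls of BTG2 and POLH rested on single libraries. BTG2 was lost without COV362 DMSO C (adjusted p 0.0502) or PEO1 DMSO C (0.0961), and POLH without COV362 DMSO B, COV362 DMSO C, PEO1 DMSO A, PEO1 DMSO B or PEO1 DMSO C (0.0544 to 0.128). On the higher side, STEAP3 was lost without COV362 DMSO B, PEO1 DMSO A, PEO1 DMSO B or PEO1 DMSO C (0.0507 to 0.0911), and SESN1 without COV362 DMSO A, PEO1 DMSO A or PEO1 DMSO C (0.0695 to 0.135). CCNG2 was the eighth member on that side, at 1.86-fold (adjusted p 0.00347), and was called whichever library was left out.

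None of the 3 negative regulators was called between the untreated lines. The log2 differences were -0.10 ± 0.13 for MDM2, 0.09 ± 0.15 for MDM4 and -0.08 ± 0.17 for PPM1D.

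A wider set of 48 tested p53 targets outside the list, chosen with earlier results of these data known, was read beside the members. In COV362, 3 rose and none fell (6.25% called, against 0.828% of all tested genes). CDKN1A, which encodes p21, a brake on the cell cycle kinases, read 4.96, 6.57 and 8.73 CPM under DMSO and 18.8, 19.4 and 21.9 under prexasertib, 2.93-fold up without overlap (log2 change 1.55 ± 0.23, adjusted p 0.00559). GADD45A, a growth arrest and damage gene, read 57.3, 36.9 and 48.8 against 115, 110 and 110 CPM (1.23 ± 0.16, adjusted p 0.00318). SERTAD1, a cell cycle cofactor, changed by 1.21 ± 0.24 (adjusted p 0.0341), a call lost without COV362 DMSO B, COV362 DMSO C, COV362 prexasertib A, COV362 prexasertib C, PEO1 DMSO B or PEO1 prexasertib C (adjusted p 0.0587 to 0.169). None of the 3 was called from the 6 COV362 libraries alone, and 15 of the 48 were called in COV362 with the replicate block, 12 higher and 3 lower, against 9.65% of all tested genes.

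In PEO1, 14 of the 48 rose and 9 fell, with a median log2 change of 0.02. That is 47.9% called, against 29.3% of all tested genes. CDKN1A read 6.66, 5.48 and 8.08 CPM in PEO1 DMSO and 65.6, 44.0 and 48.0 in PEO1 prexasertib, 7.79-fold up (2.96 ± 0.23, adjusted p 2.53e-06). TNFRSF10D, a decoy receptor of the death ligand TRAIL, rose 7.08-fold from 11.4 ± 2.97 to 81.0 ± 6.16 CPM (SD, n = 3 each, adjusted p 4.33e-06). GADD45A rose 6.16-fold from 53.9 ± 2.94 to 332 ± 55.4 CPM (adjusted p 3.64e-07), and PMAIP1, the BH3-only protein NOXA, 4.40-fold from 72.4 ± 8.58 to 319 ± 33.5 CPM (adjusted p 1.03e-05). These 4 rose more in fold than any of the 28 tested members, whose largest rise in PEO1 was that of BTG2. BAX and BBC3, effectors of p53-dependent death, and the death receptor FAS were not called in PEO1, with log2 changes of -0.49, 0.64 and -0.18, and these 3 were picked after their values were seen.

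The drug change differed between the lines for 6 of the 48, all higher in PEO1 (12.5%, against 6.10% of all tested genes). The 4 largest were TNFRSF10D (2.20 ± 0.33, adjusted p 0.00374), CDKN1A (1.41 ± 0.31, 0.0213), GADD45A (1.39 ± 0.23, 0.00498) and PMAIP1 (1.28 ± 0.28, 0.0199), with smaller differences for the other two. The CDKN1A and PMAIP1 calls were lost without COV362 DMSO C, PEO1 DMSO A, PEO1 DMSO B or PEO1 prexasertib A (adjusted p 0.0590 to 0.0670 and 0.0565 to 0.0687). Without PEO1 DMSO A the count of 6 fell to 3, and without PEO1 DMSO B or PEO1 prexasertib A to 2. Between the untreated lines 20 of the 48 were higher and 12 lower in PEO1 (66.7%, against 57.7% of all tested genes), among them CMBL (57.8 ± 2.50 CPM in COV362 DMSO and 0.734 ± 0.402 in PEO1 DMSO), the growth factor TGFA (19.4 ± 1.12 and 121 ± 6.24) and the autophagy regulator DRAM1 (40.0 ± 0.963 and 171 ± 17.9).

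Of 18 tested upstream regulators of p53, none was called in COV362 by edgeR without the block, against 0.828% of all tested genes. By the unadjusted p at 0.05, 2 were lower and 0 higher there (11.1%, against 12.6% of all tested genes). In PEO1 4 were called (22.2%, against 29.3% of all tested genes). With the replicate block 3 were called in COV362, all lower (16.7%, against 9.65% of all tested genes, 5.45% lower). They were ATM (-0.49, adjusted p 0.0216), RFWD2 (-0.38, 0.0436) and CHEK2 (-0.53, 0.0473), named after their values were seen. In PEO1 ATR, the replication stress kinase above CHK1, changed by 0.85 ± 0.24 (adjusted p 0.0183), the acetyltransferase CREBBP by 0.73 ± 0.18 (0.00962) and TP53RK, a kinase that phosphorylates p53, by 0.56 ± 0.16 (0.0192). CHEK2, which encodes CHK2, a target of the drug, changed there by -0.49 ± 0.17 (adjusted p 0.0488). Each of these calls in PEO1 rested on single libraries. ATR was lost without PEO1 DMSO A or B or PEO1 prexasertib B or C (adjusted p 0.0545 to 0.119), and CREBBP without PEO1 DMSO A or PEO1 prexasertib B (0.0686 and 0.0775). TP53RK was lost without PEO1 DMSO A, B or C or PEO1 prexasertib A (0.0602 to 0.156), and CHEK2 without COV362 DMSO B, COV362 DMSO C, COV362 prexasertib C, PEO1 DMSO A, PEO1 DMSO B, PEO1 prexasertib A or PEO1 prexasertib B (0.0548 to 0.136). None of the 18 was called for a difference between the lines, against 6.10% of all tested genes. Between the untreated lines 9 differed (50%, against 57.7% of all tested genes), led by PPP1R13L, RCHY1, RPL11 and RFWD2.

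Because TP63 was read almost wholly in PEO1, known p63 targets were set beside it. All 11 tested targets differed between the untreated lines, 10 of them higher in PEO1 (57.7% of all tested genes differed there, and 29.1% were higher), among them KRT5 (0.124 ± 0.121 CPM in COV362 DMSO and 244 ± 24.2 in PEO1 DMSO) and SFN (13.3 ± 2.22 and 218 ± 34.4). Under prexasertib in PEO1, where TP63 itself was not called, 4 of the 11 targets fell and 2 rose (54.5% called, against 29.3% of all tested genes). The basal keratin KRT5 read 270, 241 and 222 CPM under DMSO and 65.8, 53.2 and 72.6 under prexasertib, a log2 change of -1.94 ± 0.25 (adjusted p 1.07e-04). JAG2, a Notch ligand (-1.23 ± 0.21), the integrin ITGB4 (-1.14 ± 0.25) and SFN, the stratifin checkpoint protein (-1.03 ± 0.19), fell with it, while COL17A1 (0.88, adjusted p 0.0164), named after its values were seen, rose. The COL17A1 call was lost without PEO1 DMSO A, PEO1 DMSO C, PEO1 prexasertib A or PEO1 prexasertib B (0.0668 to 0.0895). SFN was the 1 target whose change differed between the lines (-1.40 ± 0.28, adjusted p 0.0141). That was 9.09% of the 11, against 6.10% of all tested genes. SFN was counted with the p63 targets alone, so the tallies of p53 targets above leave it out, although p53 and p63 share part of their targets.

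In COV362 the p63 target JAG2 was called lower (-1.14 ± 0.24, adjusted p 0.0396), with 6.53, 8.66 and 8.08 CPM under DMSO and 4.91, 2.84 and 3.06 under prexasertib. This call was kept without COV362 DMSO A or COV362 prexasertib A and lost without each of the other 10 libraries (adjusted p 0.0508 to 0.180). With the replicate block JAG2 (adjusted p 0.00101) and the laminin LAMA3 (-0.77, adjusted p 8.98e-04), named after its value was seen, were called lower. These were 18.2% of the 11 tested p63 targets, against 9.65% of all tested genes called with the block (5.45% lower).

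**Figure D4:**
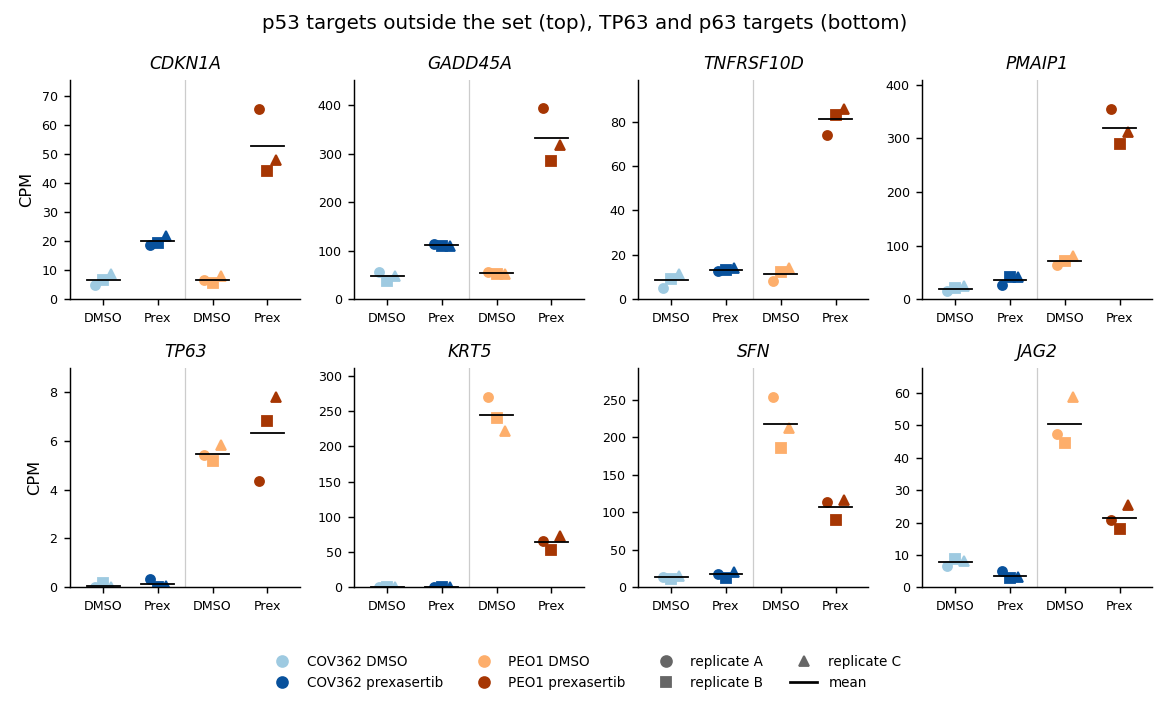
CPM in each of the 12 libraries (points, shaped by replicate letter) with the group mean (line) for 4 p53 targets outside the list (top) and for TP63 with 3 p63 targets (bottom). CDKN1A and GADD45A rise in both lines and further in PEO1, and TP63 and KRT5 are read almost wholly in PEO1, where KRT5 falls under the drug and TP63 does not pass the test.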

How the data were processed

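The genes and lists were chosen with earlier results of these data known. Per the labels' protocols, column-purified RNA went into Illumina's TruSeq v2 kit, an unstranded poly(A) protocol. The submitters' processing notes name hg38, STAR and featureCounts 1.4.6 (Subread). The authors deposited 1 table of unnormalized counts, with exon positions and lengths per the file headers.

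The whole table was fitted in edgeR 4.0.16 (R 4.3.3): filterByExpr (minimum count 10, minimum total 15), TMM scaling, 4 group means over 12 libraries, 8 residual degrees of freedom, quasi-likelihood F-test. SE is the absolute log2 change over the square root of F. RPKM used the table's exon length. Intervals at 95% are exact and cover counting error only, and a count of 0 allows up to 3 counts. The fit was also run on simulated counts drawn from its own dispersions, without a letter or exon-length effect. That run cannot speak for such effects in these libraries.

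All members called for the drug or its difference between lines are given in full, other tested members by range with the 3 lowest adjusted p per line, and for the untreated lines the 5 largest called changes at 1 CPM or more. From each further list the 4 largest called changes at 1 CPM or more are given, with CDKN1A and GADD45A always. Some genes that this rule takes are not reported here. CCNG1, PRKAB1, BTG2, POLH, STEAP3, SESN1 and CCNG2 in the untreated lines were added after their values were seen.

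The letters were taken to pair libraries where deviations from the group means correlated at over 0.1 in every same-lettered pair. This held at 0.133 to 0.423 in COV362 and at 0.148 to 0.350 between the untreated lines. Not every best match shared its letter. COV362 prexasertib C correlated at 0.138 with COV362 DMSO B and at 0.133 with COV362 DMSO C. COV362 DMSO B correlated at 0.245 with PEO1 DMSO C and at 0.164 with PEO1 DMSO B. The pairing is therefore uncertain. Alternatives were DESeq2 1.42.0, limma-voom (limma 3.58.1), DESeq2-style size factors (RLE), no filter, a replicate block, an adjusted p under 0.01, the 6 libraries of a comparison alone, and leaving out libraries. No 2 replicates were duplicates (lowest chi-square per degree of freedom 9.21).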

Additional observations from a re-analysis of the deposited data

Results flagged for a closer look

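Each of the following was picked out because the drug change differed between the lines by the test of that difference (edgeR quasi-likelihood, Benjamini-Hochberg adjusted over all tested genes, PEO1 change minus COV362 change on the log2 scale). Among the members these were BTG2 (2.09, adjusted p 0.00301), ZMAT3 (1.33, 0.0296), CCNG2 (1.21, 0.0392), MDM4 (1.07, 0.0149) and STEAP3 (-1.02, 0.0168). Among the genes set beside them these were TNFRSF10D (2.20, 0.00374), CDKN1A (1.41, 0.0213), GADD45A (1.39, 0.00498), PMAIP1 (1.28, 0.0199) and the p63 target SFN (-1.40, 0.0141). BTG2 is the member whose libraries were apart in both lines and in opposite directions.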

How the results depend on the processing

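Over 1763 values of single genes under the alternatives, 1595 kept their direction and their side of the threshold, 124 lost a call, 36 gained one and 8 reversed. The reversed values belong to 3 uncalled log2 changes of -0.18, -0.02 and 0.20: in COV362 CCNG2 (-0.41 to 0.074 with 1 library left out, above 0 without COV362 DMSO B) and TP53INP1 (0.032 by limma-voom, 0.035 with the replicate block and -0.27 to 0.58 with 1 library left out), and the difference between lines for AEN (-0.034 without the A libraries, and -0.015 to 0.34 with 1 left out, below 0 without PEO1 prexasertib A). The cause was not tested.

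For COV362, the 0 members called became 3 by DESeq2, 1 by limma-voom, 4 with the replicate block, 2 without the A libraries and 0 to 1 with 1 library left out. The 3 further p53 targets became 5 by DESeq2, 15 with the block, 7 without the A libraries, 0 from 6 libraries alone and 2 to 4 with 1 left out. The 120 genes called in COV362 became 35 at an adjusted p under 0.01, 499 by DESeq2, 1399 with the block, 330 without the A libraries, 10 from 6 libraries alone and 27 to 128 with 1 left out.

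For PEO1, the 11 members became 17 with the block, and the 4249 genes became 2319 at 0.01 and 6926 with the block. The members that the block added in PEO1 were PHLDA3, TP53BP2, EI24, TRIAP1, TP53I3 and XPC. For the difference, the 5 members became 1 at 0.01, 9 with the block and 2 to 6 with 1 library left out. The 6 further targets became 2 at 0.01, 19 with the block, 10 without the A libraries and 2 to 8 with 1 left out. The 885 genes became 157 at 0.01, 1840 by DESeq2, 4219 with the block and 328 to 1756 with 1 left out. No count for the untreated lines moved by over 1.5 times.

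In PEO1 same-lettered libraries correlated at 0.0813 to 0.302, so not every pair there passed 0.1 and the block values for PEO1 and the difference are given here alone. PEO1 DMSO C correlated best with PEO1 prexasertib B (0.222). Best matches across letters were also seen in the comparisons that passed. A replicate block within each line, chosen after seeing the data, called 6 members in COV362, 17 in PEO1 and 10 for the difference. Counts limit TP73, SPATA18, EDA2R, GDF15 and TP63 in COV362.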
